A study of Mus musculus with 12 samples.

Results

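Interferon-stimulated genes were followed in mouse liver RNA-seq as a list of 40 gene symbols, all of which were present among the 25540 symbols of the deposited count table. They were chosen as known targets of interferons, 29 of them typical of type I interferon and 11 typical of type II interferon. The second class holds the transcription factors Irf1 and Irf8 and the interferon-inducible GTPases, which type I interferon can also induce, so the classes name the usual main inducer. The liver RNA is from BALB/c mice, with 12 samples split evenly over 4 groups. Each group was injected with a different load of iExos, a name read here as exosomes, the small vesicles that cells release. The siRNA arm sets siSTAT3 against its control siCntrl, and the mASO arm sets mASO STAT3 against its control mASO Scrbl. Small interfering RNA is commonly shortened to siRNA and antisense oligonucleotide to ASO, while the m has no explanation in the labels. All 4 groups were injected, and livers of uninjected mice were not analysed here. Age, sex, dose and any liver injury are not given in the labels, and whether the 3 samples of a group are separate animals is not stated, so the p-values cover only the spread among these samples, which may be technical.

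Type I interferons bind the receptor IFNAR, whose kinases JAK1 and TYK2 lead to assembly of the complex ISGF3, which contains IRF9 and binds the interferon-stimulated response element (ISRE). Type II interferon, interferon gamma, binds IFNGR and acts on the gamma-activated site (GAS) and, at a later stage, through IRF1. In liver, hepatocytes, Kupffer cells and endothelium all respond to interferons, and the induced proteins bind viral RNA, degrade RNA, tag proteins with ISG15 or attack the vacuoles of intracellular pathogens.

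The promoters were read for letters typical of both elements, because the members are defined by response to these pathways. RefSeq promoter windows on GRCm38.p6, 250 bases before to 50 bases after the start and 300 bases in all, were found for 31 of the 40 members. The ISRE-type letters GAAANNGAA, on either strand, were held by 20 of these 31 genes, or 64.5%, against 9.76% of the 27025 genes in that table. The GAS-type letters TTCNNNGAA, which read the same on both strands, were held by 12 of 31, or 38.7%, against 9.55%. Among type I members 13 of 22 held the ISRE-type letters and 6 of 22 the GAS-type letters, and among type II members the counts were 7 and 6 of 9. The 2 searches can overlap within a promoter, and a match is a description of the reference sequence of another strain than BALB/c, with no test of binding. Irf7 held neither set of letters in this window.

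The printed windows end at the base before the start and are printed 5′ to 3′ on the strand of the gene, with capitals for letters that match either search. Isg15 and Oas1a stand for members that were lower in the mASO arm, Ifit1 for a member higher in the siRNA arm alone, Ifit3, Igtp and Irf1 for members higher in both arms, and Gbp3 and Irgm2 for type II members higher in the siRNA arm.
Isg15, chr4:156200819-156200918, minus strand: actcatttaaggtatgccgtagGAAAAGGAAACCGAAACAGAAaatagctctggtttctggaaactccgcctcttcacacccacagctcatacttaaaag
Oas1a, chr5:120907526-120907625, minus strand: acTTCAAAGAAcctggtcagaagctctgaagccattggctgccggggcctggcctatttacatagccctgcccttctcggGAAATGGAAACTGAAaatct
Ifit1, chr19:34640769-34640888, plus strand: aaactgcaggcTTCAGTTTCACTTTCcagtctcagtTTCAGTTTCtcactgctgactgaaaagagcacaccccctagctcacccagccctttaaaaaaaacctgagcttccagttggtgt
Ifit3, chr19:34583364-34583528, plus strand: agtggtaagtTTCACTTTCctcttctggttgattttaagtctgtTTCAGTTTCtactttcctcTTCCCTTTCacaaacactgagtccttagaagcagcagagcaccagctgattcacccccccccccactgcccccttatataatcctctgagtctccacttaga
Gbp3, chr3:142559964-142560043, plus strand: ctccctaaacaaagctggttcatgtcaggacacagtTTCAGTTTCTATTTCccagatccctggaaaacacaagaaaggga
Igtp, chr11:58199436-58199555, plus strand: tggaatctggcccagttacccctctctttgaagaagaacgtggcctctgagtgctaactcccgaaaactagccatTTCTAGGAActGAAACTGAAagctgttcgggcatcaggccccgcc
Irgm2, chr11:58214857-58214976, plus strand: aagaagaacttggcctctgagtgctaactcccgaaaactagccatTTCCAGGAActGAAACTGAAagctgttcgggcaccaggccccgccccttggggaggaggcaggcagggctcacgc
Irf1, chr11:53769854-53770013, plus strand: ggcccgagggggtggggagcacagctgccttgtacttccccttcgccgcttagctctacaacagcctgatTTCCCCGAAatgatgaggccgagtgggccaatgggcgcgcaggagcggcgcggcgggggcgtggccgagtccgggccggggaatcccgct
Isg15 carried 3 overlapping ISRE-type matches, and Ifit1 and Ifit3 carried 3 each on the opposite strand. Igtp and Irgm2, neighbouring GTPase genes, held a GAS-type match followed after 2 bases by an ISRE-type match, and Irf1 held a GAS-type match alone.

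Levels are given in CPM, counts scaled to a common sequencing depth, here adjusted to each library's total and its TMM composition factor. Library totals ran from 39844158 to 67791159 counts, and TMM factors from 1.11 to 1.27 in the control libraries and from 0.804 to 0.901 in those labelled STAT3. All 40 members passed the filter on low counts, which kept 15720 genes. Per kilobase of exon, the members spanned a wide range of group means, from 0.226 to 0.599 CPM per kilobase for Mx1 to 402 to 660.1 CPM per kilobase for Ifitm3. Close relatives share sequence, and how shared reads were counted is not stated. Of the 50-base windows in their transcripts, Gbp6 shared 70.7% with other genes, Gbp10 among them, Oas1a 57.6% (mainly with Oas1g and Oas1b), Ifit3 51.2% (with Ifit3b) and Oas1g 45.7%, so the levels of these 4 members are uncertain. Hepatocyte markers, the check of the labelled tissue, were abundant in every library and are given with the other cell types at the end.

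Interferon-stimulated genes were called higher or lower in both arms, as were many other genes. In the siRNA arm 13 members were higher and 1 was lower with siSTAT3 (edgeR quasi-likelihood test, Benjamini-Hochberg adjusted p under 0.05 over all 15720 genes). In the mASO arm 5 were higher and 10 were lower with mASO STAT3. These arms changed much of the transcriptome, with 22.4% of all genes higher and 23.4% lower in the siRNA arm, beside 21.3% higher and 22.5% lower in the mASO arm. Of the 40 members 32.5% were higher and 2.5% lower in the siRNA arm, and 12.5% were higher and 25% lower in the mASO arm. Of the 29 type I members 24.1% were higher in the siRNA arm, near the share of all genes, and 3.45% were lower. In the mASO arm 10.3% of them were higher and 34.5% lower. The median log2 fold change of the 29 type I members was 0.29 (siRNA arm) and −0.40 (mASO arm), that of the 11 type II members 0.77 and 0.43, and that of all genes −0.04 and −0.05. Scaling by library totals alone shifted the median of all genes to −0.53 and −0.63, and took the type I medians to −0.21 and −0.98 and the type II medians to 0.26 and −0.14. The type I median of the siRNA arm and the type II median of the mASO arm thereby turned below 0. Between the control groups it shifted the median of all genes to 0.12. With library totals the higher calls of Mx1, Usp18, Bst2, Ifitm3, Irf1, Gbp3, Gbp7 and Irgm2 in the siRNA arm, and of Ifit3, Oas2, Mx2, Irf1 and Igtp in the mASO arm, were lost. Oas1a, Oasl1, Isg15, Cmpk2, Ifi44 and Trim30a then passed as lower in the siRNA arm, so every change given here is relative to the composition-scaled level. The counts moved by over 1.5 times without single libraries in these cases: 2 lower in the siRNA arm without siCntrl library 2 or siSTAT3 library 3, and 3 higher in the mASO arm without mASO STAT3 library 3 or mASO Scrbl library 1 or 2.

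**Figure D1:**
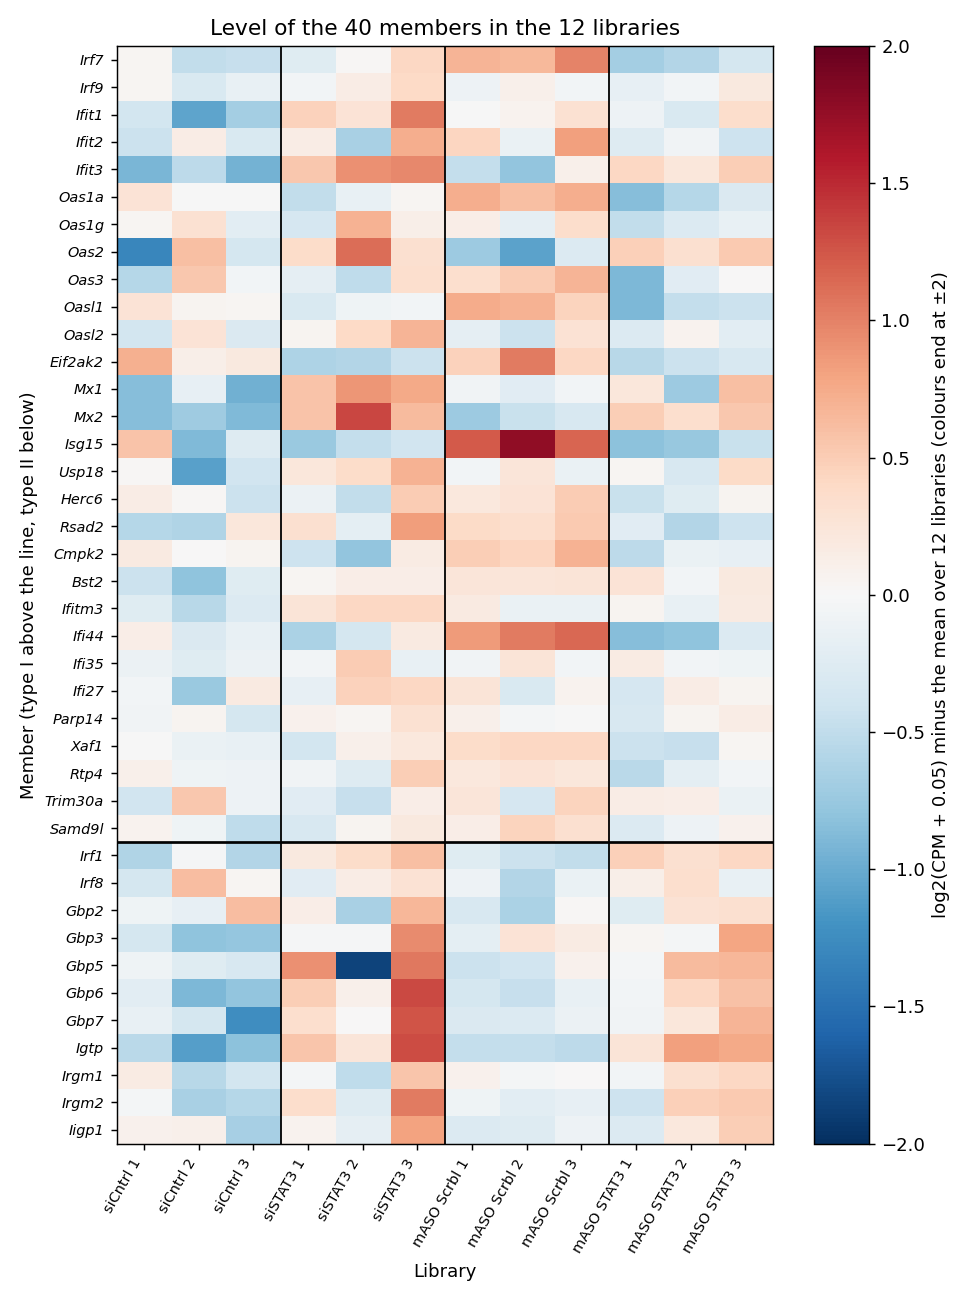
Level of the 40 members (rows, type I above the line and type II below) in the 12 libraries (columns, grouped), as log2 of CPM plus 0.05 minus the row mean. Isg15, Irf7 and Ifi44 stand out in red in the 3 mASO Scrbl libraries, and most type II rows are reddest in siSTAT3 library 3.

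Isg15 encodes a ubiquitin-like protein that is attached to other proteins during an interferon response, and it had the largest fall of the 40 members in the mASO arm. It stood at 55.0, 80.8 and 52.9 CPM in mASO Scrbl and at 13.3, 13.9 and 17.3 CPM in mASO STAT3. In the siRNA arm the values were 34.8, 12.8 and 19.6 CPM in siCntrl and 14.0, 16.9 and 18.1 CPM in siSTAT3. The 3 mASO Scrbl libraries were thus above all others, and siCntrl library 1 was the next highest. The log2 fold change was −2.08 ± 0.30 (SE) in the mASO arm (edgeR adjusted p = 0.000131) and −0.46 ± 0.29 in the siRNA arm (edgeR adjusted p = 0.223). Without siCntrl library 2 the siRNA value was −0.74 and passed (edgeR adjusted p = 0.0306). Usp18, the protease that removes ISG15 and dampens IFNAR signalling, did not follow Isg15: in the siRNA arm it was higher, with 13.8 ± 5.08 CPM in siCntrl and 24.98 ± 4.23 CPM in siSTAT3 (SD, n = 3), and in the mASO arm it did not pass. The log2 fold changes were 0.85 ± 0.25 and 0.03 ± 0.25. The Usp18 call was lost without siCntrl library 2 (0.60, edgeR adjusted p = 0.0510) or siSTAT3 library 3 (0.71, edgeR adjusted p = 0.0571). Herc6, the mouse ligase for ISG15, passed in neither arm (0.09 and −0.53).

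Irf7, the transcription factor that amplifies type I interferon production, was lower in the mASO arm. Its levels were 84.0, 82.6 and 105 CPM in mASO Scrbl and 32.9, 35.1 and 41.5 CPM in mASO STAT3. In siCntrl it stood at 54.4, 37.5 and 38.2 CPM and in siSTAT3 at 44.5, 53.4 and 70.3 CPM. The mASO groups were apart, with no overlap of their libraries, while the siRNA groups overlapped. The share of all genes with apart groups in an arm was not counted. The log2 fold change was −1.31 ± 0.19 in the mASO arm (edgeR adjusted p = 0.000101) and 0.37 ± 0.19 in the siRNA arm (edgeR adjusted p = 0.125). Without siCntrl library 1 the siRNA value was 0.57 (edgeR adjusted p = 0.0303). Irf9, the DNA-binding subunit of ISGF3, passed in neither arm, with 0.31 ± 0.15 and 0.02 ± 0.15.

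Ifi44, an interferon-induced gene often read as a type I marker, was also lower in the mASO arm. It stood at 33.4, 38.0 and 41.2 CPM in mASO Scrbl and at 10.3, 10.5 and 15.3 CPM in mASO STAT3. In siCntrl it was at 20.3, 15.05 and 16.7 CPM and in siSTAT3 at 11.9, 14.5 and 20.8 CPM. Again the 3 mASO Scrbl libraries were the 3 highest of 12. The log2 fold change was −1.64 ± 0.22 in the mASO arm (edgeR adjusted p = 4.21e-05) and −0.14 ± 0.21 in the siRNA arm (edgeR adjusted p = 0.611).

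The OAS family includes enzymes that make the second messenger that switches on RNase L. Its members divided in the mASO arm. Oas1a was at 15.1, 13.8 and 14.96 CPM in mASO Scrbl and at 5.02, 6.10 and 7.45 CPM in mASO STAT3. It was at 10.9, 8.99 and 9.02 CPM in siCntrl and at 6.43, 8.18 and 9.28 CPM in siSTAT3. The mASO groups were apart and the siRNA groups overlapped, with log2 fold changes of −1.24 ± 0.18 (edgeR adjusted p = 0.000121) and −0.28 ± 0.18 (edgeR adjusted p = 0.23). Oasl1, an OAS-like protein known to restrain Irf7 translation, was at 13, 12.6 and 10.6 CPM in mASO Scrbl and at 4.11, 5.57 and 5.76 CPM in mASO STAT3. It was at 9.41, 8.01 and 7.92 CPM in siCntrl and at 6.27, 7.28 and 7.46 CPM in siSTAT3. Both pairs of groups were apart, but Oasl1 passed in the mASO arm alone (−1.22 ± 0.18, edgeR adjusted p = 8.85e-05, against −0.27 ± 0.17, edgeR adjusted p = 0.22). Oas2 went the other way, at 5.01 ± 0.350 in mASO STAT3 against 2.32 ± 0.653 CPM in mASO Scrbl (log2 fold change 1.11 ± 0.40, edgeR adjusted p = 0.0367). That call was lost without any one of the 3 mASO STAT3 libraries or of mASO Scrbl libraries 1 and 2 (edgeR adjusted p up to 0.123). In the siRNA arm Oas2 did not pass (0.81 ± 0.40), though without siCntrl library 2 it did (1.42, edgeR adjusted p = 0.0079). Oas1g, Oas3 and Oasl2 passed in neither arm, with mASO values of −0.43, −0.85 and −0.05. Oas3 did pass in the mASO arm by DESeq2's Wald test, with the replicate number as a block (edgeR adjusted p = 0.0483) and with only the compared libraries, and Oasl2 passed in the siRNA arm without siCntrl library 2 (0.73, edgeR adjusted p = 0.0406).

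Eif2ak2, the kinase PKR that halts translation on binding double-stranded RNA, was the only member lower in both arms. It stood at 48.1, 31.9 and 33.7 CPM in siCntrl and at 19.2, 19.5 and 21.9 CPM in siSTAT3. In mASO Scrbl it was at 40.3, 60.3 and 39.1 CPM and in mASO STAT3 at 19.98, 21.9 and 23.4 CPM. The 6 libraries labelled STAT3 were all below the 6 controls. The log2 fold changes were −0.91 ± 0.19 (edgeR adjusted p = 0.0015) and −1.10 ± 0.19 (edgeR adjusted p = 0.000387), and their difference was −0.19 ± 0.26.

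Other type I members that were lower in the mASO arm were Rsad2, which encodes the antiviral radical-SAM enzyme viperin, its neighbour Cmpk2, the apoptosis factor Xaf1 and the receptor transporter Rtp4. Rsad2 was at 3.92 ± 0.487 in mASO STAT3 against 6.92 ± 0.474 CPM in mASO Scrbl, and Xaf1 at 7.05 ± 1.43 against 11.2 ± 0.189 CPM. Their log2 fold changes were −0.82 ± 0.28 and −0.66 ± 0.18, with −0.82 ± 0.25 for Cmpk2 and −0.49 ± 0.19 for Rtp4. The calls of Rsad2, Cmpk2 and Rtp4 were lost without single libraries. Rsad2 was lost without mASO STAT3 library 2 or 3 or mASO Scrbl library 1 or 3 (edgeR adjusted p up to 0.0874), and Cmpk2 without mASO STAT3 library 1 or mASO Scrbl library 3 (up to 0.0692). Rtp4 was lost without any single library of the arm other than mASO STAT3 library 3 (up to 0.177). In the siRNA arm none of the 4 passed, but Rsad2 did so without siCntrl library 3 (0.98) or siSTAT3 library 2 (0.87) or with the replicate number as a block (0.64, edgeR adjusted p = 0.0441), and Cmpk2 without siSTAT3 library 3 (−0.68).

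**Figure D2:**
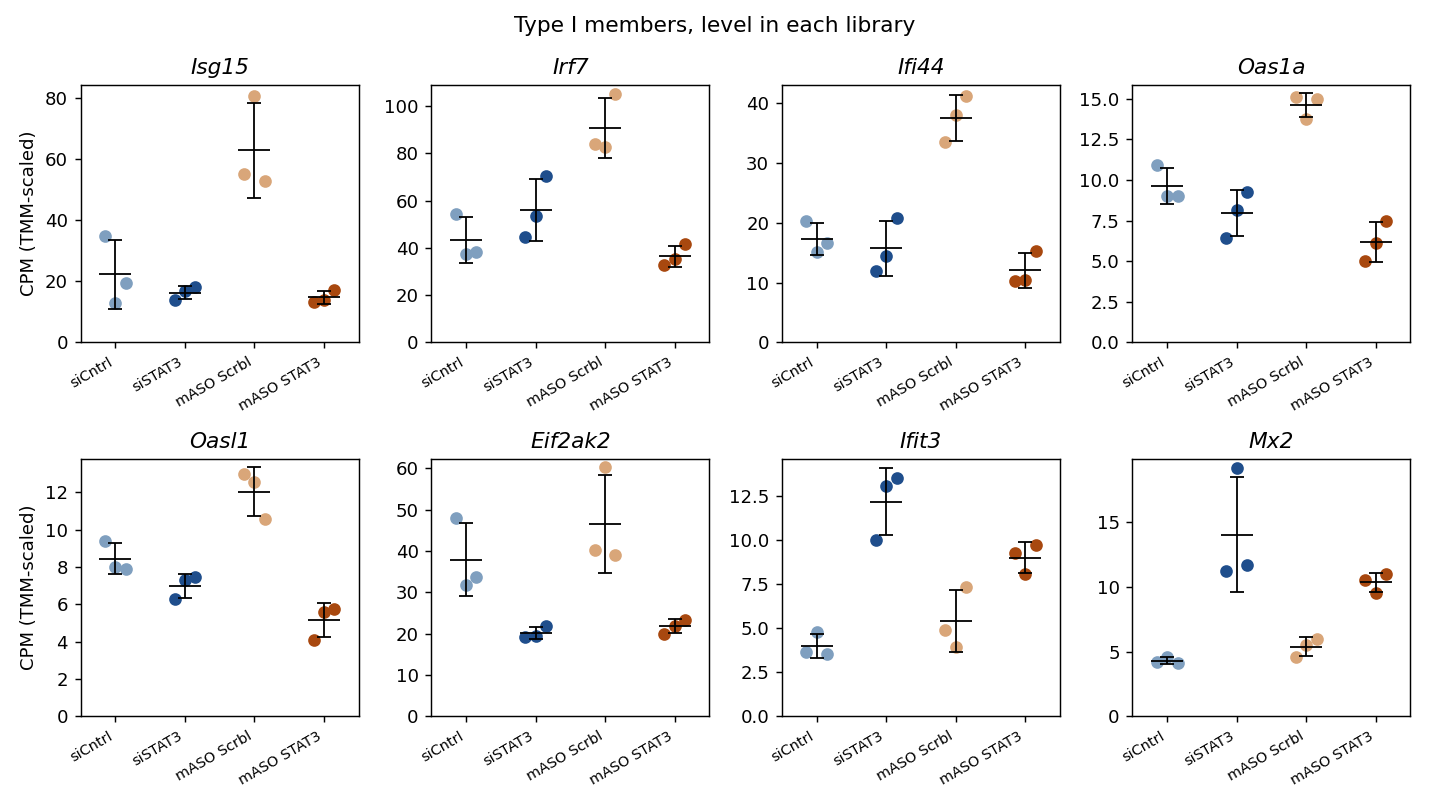
CPM of 8 type I members in each library (points), with the mean (bar) and SD (whiskers) of the 3 libraries of each group. Isg15, Irf7, Ifi44, Oas1a and Oasl1 are highest in mASO Scrbl, Eif2ak2 is low in both groups labelled STAT3, and Ifit3 and Mx2 are high in both.

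Ifit3 and Mx2 were higher in both arms, unlike the members above. Ifit3 belongs to the IFIT proteins, which bind viral RNA, and stood at 3.64, 4.78 and 3.56 CPM in siCntrl and at 10.03, 13.1 and 13.5 CPM in siSTAT3. In mASO Scrbl it was at 4.93, 3.96 and 7.37 CPM and in mASO STAT3 at 9.25, 8.06 and 9.74 CPM. Every library labelled STAT3 was above every control. The log2 fold changes were 1.61 ± 0.23 (edgeR adjusted p = 9.11e-05) and 0.73 ± 0.23 (edgeR adjusted p = 0.0179). The second call was lost without mASO STAT3 library 3 or mASO Scrbl library 1 or 2 (edgeR adjusted p up to 0.0805). Mx2, of a family of dynamin-like antiviral GTPases, was at 4.17, 4.60 and 4.08 CPM in siCntrl and at 11.3, 19.2 and 11.7 CPM in siSTAT3. In mASO Scrbl it was at 4.55, 5.52 and 6.005 CPM and in mASO STAT3 at 10.6, 9.54 and 10.99 CPM. Here too the 6 libraries labelled STAT3 were above the 6 controls, with log2 fold changes of 1.71 ± 0.21 (edgeR adjusted p = 2.36e-05) and 0.95 ± 0.21 (edgeR adjusted p = 0.00207).

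Ifit1, Mx1, Bst2 and Ifitm3 were higher in the siRNA arm and did not pass in the mASO arm. Ifit1 stood at 11.8 ± 3.42 against 4.73 ± 1.10 CPM (log2 fold change 1.31 ± 0.25) in the siRNA arm and at 7.61 ± 1.84 against 8.28 ± 0.947 CPM in the mASO arm. Mx1, of which most inbred laboratory strains carry a defective allele, was at 2.03 ± 0.227 against 0.764 ± 0.260 CPM in the siRNA arm (1.41 ± 0.38). Bst2, or tetherin, holds budding virus at the cell surface, and was at 224 ± 8.04 against 149.99 ± 28.6 CPM (0.58 ± 0.15). Ifitm3, which blocks viral entry from endosomes, was at 448 ± 28.2 against 272 ± 31.4 CPM (0.72 ± 0.14). In the mASO arm the log2 fold changes of the 4 genes lay between −0.12 and 0.25. The remaining type I members, Ifit2, Ifi35, Ifi27, Parp14, Trim30a and Samd9l, passed in neither arm.

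Of the 11 type II members, 6 were higher in the siRNA arm and 2 in the mASO arm, and by edgeR 0 were lower in either, with 0 lower at an unadjusted p under 0.05 and 0 by DESeq2's Wald test or limma voom. The siRNA count is 54.5% of the class beside 22.4% of all genes, and the mASO count is 18.2%, near the 21.3% of all genes. After scaling by library totals 2 and 0 were higher, and without siSTAT3 library 3 the siRNA count was 3. Irf1, the transcription factor through which interferon gamma reaches many of its targets, stood at 23.0, 34.7 and 23.3 CPM in siCntrl and at 40.04, 45.4 and 53.2 CPM in siSTAT3. In mASO Scrbl it was at 29.7, 26.2 and 24.996 CPM and in mASO STAT3 at 48.8, 44.1 and 47.1 CPM. Both pairs of groups were apart, and the log2 fold changes were close, at 0.77 ± 0.17 (edgeR adjusted p = 0.00186) and 0.79 ± 0.17 (edgeR adjusted p = 0.00165). Their difference was 0.02 with a 95% interval from −0.48 to 0.52. Irf8, a factor of macrophages and dendritic cells, was at 7.57, 14.9 and 9.85 CPM in siCntrl, 8.26, 10.7 and 11.8 CPM in siSTAT3, 8.92, 6.41 and 8.74 CPM in mASO Scrbl and 10.4, 12.1 and 8.69 CPM in mASO STAT3. Its groups overlapped in both arms and it passed in neither (−0.07 ± 0.24 and 0.38 ± 0.24).

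The immunity-related GTPases act on the membranes of pathogen vacuoles, and Igtp, which encodes Irgm3, was higher in both arms. It stood at 29.8, 20.1 and 24.4 CPM in siCntrl and at 63.3, 51.0 and 107 CPM in siSTAT3. In mASO Scrbl it was at 30.9, 30.9 and 30.02 CPM and in mASO STAT3 at 51.6, 75.9 and 73.3 CPM. All 6 libraries labelled STAT3 exceeded all 6 controls, with log2 fold changes of 1.57 ± 0.24 (edgeR adjusted p = 0.000188) and 1.13 ± 0.24 (edgeR adjusted p = 0.00206). Irgm2 was at 40.4, 26.3 and 27.8 CPM in siCntrl, 52.6, 34.7 and 85.0 CPM in siSTAT3, 39.0, 35.5 and 37.1 CPM in mASO Scrbl and 31.1, 57.4 and 59.3 CPM in mASO STAT3. The groups of each arm overlapped, and the siRNA call (0.87 ± 0.31, edgeR adjusted p = 0.0343) was lost without siCntrl library 2 or 3 or siSTAT3 library 1 or 3, with 0.47 (edgeR adjusted p = 0.19) without the last and 0.81 with the replicate number as a block (edgeR adjusted p = 0.053). Irgm1 and Iigp1 passed in neither arm, with log2 fold changes from 0.22 to 0.41.

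The guanylate-binding proteins, GTPases that coat and break open vacuoles and bacteria, were higher in the siRNA arm for 3 of 5 members and in the mASO arm for 0 of 5 by edgeR, with 0 at an unadjusted p under 0.05 and 0 by DESeq2's Wald test or limma voom. With only the compared libraries in the fit, Gbp6 and Gbp7 passed in the mASO arm (0.65 and 0.53, edgeR adjusted p = 0.0482 and 0.0391). Gbp3 was at 9.62, 7.04 and 7.17 CPM in siCntrl and at 12.2, 12.2 and 23.7 CPM in siSTAT3, and at 10.8, 14.8 and 13.8 CPM in mASO Scrbl and 12.7, 11.997 and 21.4 CPM in mASO STAT3. Gbp6 was at 2.79, 1.71 and 1.85 CPM in siCntrl and at 4.58, 3.47 and 8.11 CPM in siSTAT3, and at 2.51, 2.34 and 2.92 CPM in mASO Scrbl and 3.101, 4.30 and 4.85 CPM in mASO STAT3. Gbp7 was at 10.3, 8.98 and 4.84 CPM in siCntrl and at 14.6, 11.6 and 27.5 CPM in siSTAT3, and at 9.44, 9.53 and 10.6 CPM in mASO Scrbl and 10.9, 13.5 and 18.4 CPM in mASO STAT3. All 3 genes had apart groups in the siRNA arm, and Gbp6 and Gbp7 also in the mASO arm. No share of all genes stands beside these separations, nor beside those of Ifit3, Mx2, Igtp and Eif2ak2. Library 3 of siSTAT3 was the highest of the 12 for Gbp3, Gbp6 and Gbp7. The siRNA log2 fold changes were 1.01 ± 0.29, 1.34 ± 0.32 and 1.15 ± 0.33. Without siSTAT3 library 3 the values for Gbp3 and Gbp7 were 0.61 and 0.70 and no longer passed (edgeR adjusted p = 0.0686 and 0.0673), while Gbp6 still passed. Gbp2 and Gbp5 passed in neither arm, although Gbp5 did so in the siRNA arm without siSTAT3 library 2 (1.24, edgeR adjusted p = 0.0133).

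**Figure D3:**
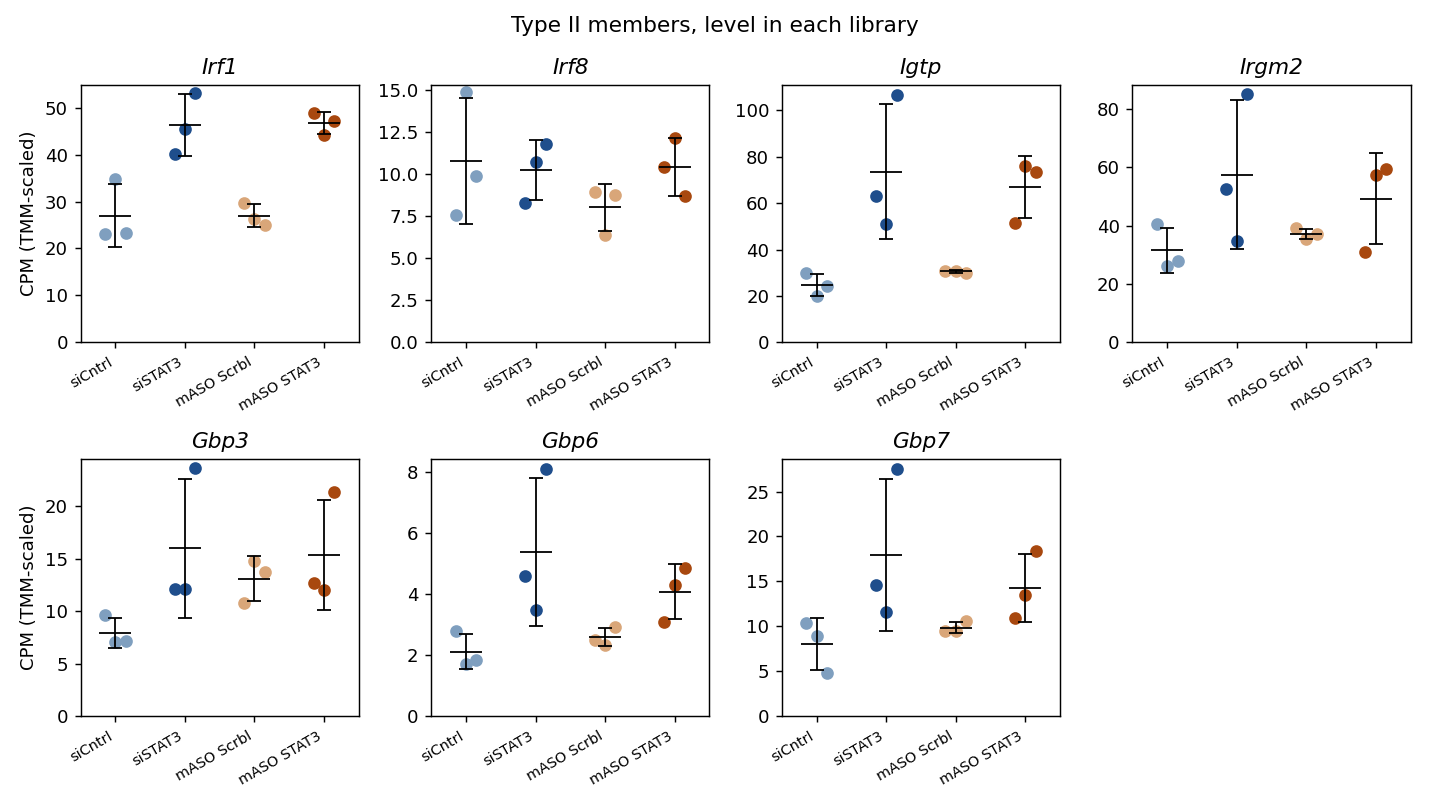
CPM of 7 type II members in each library (points), with the mean (bar) and SD (whiskers) of the 3 libraries of each group. Irf1 and Igtp are higher in both groups labelled STAT3 than in their controls, and siSTAT3 library 3 is the highest of its group in every panel.

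**Figure D4:**
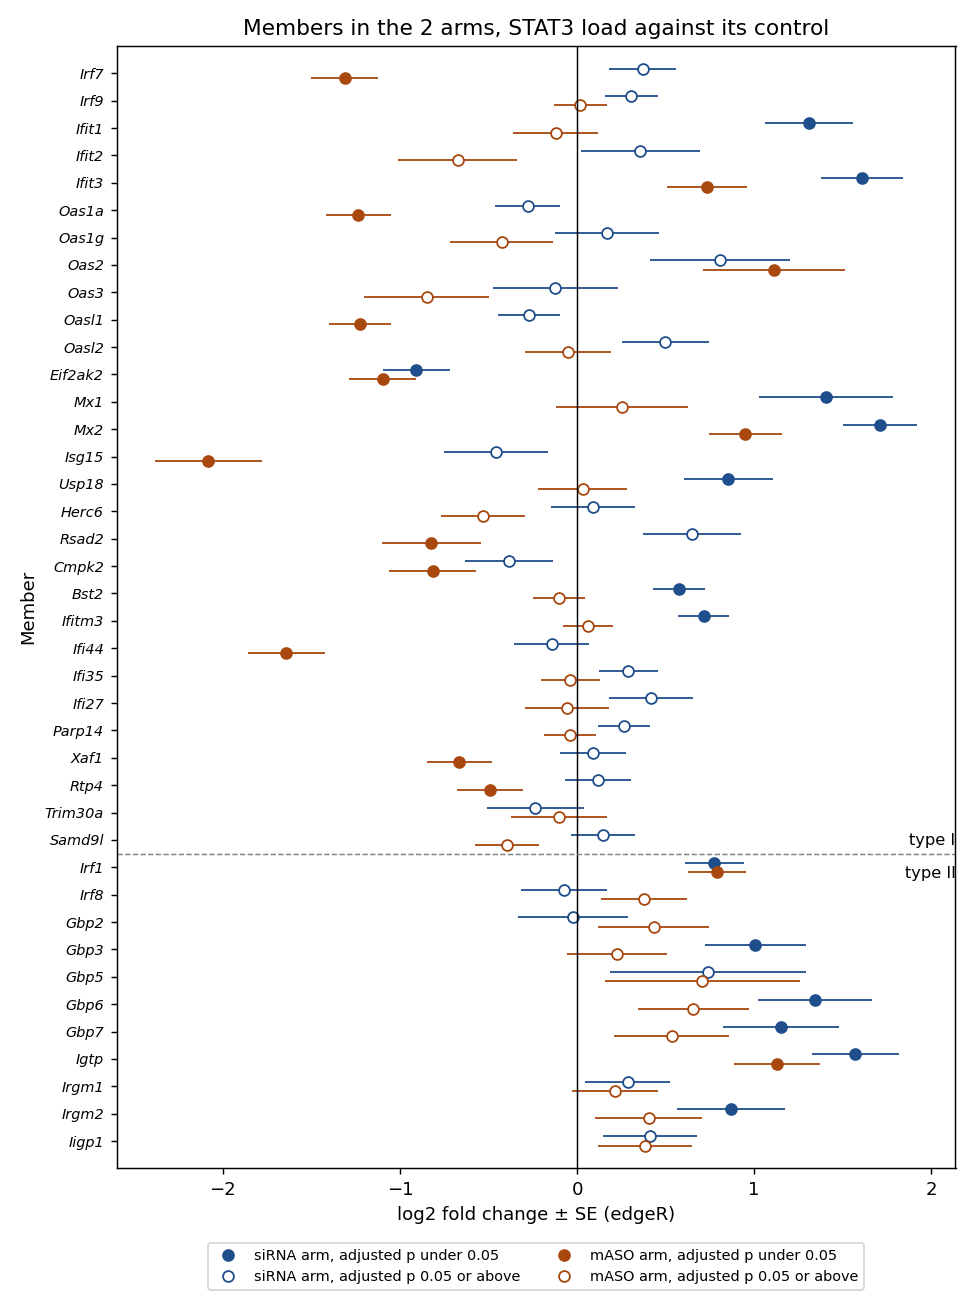
Log2 fold change of each member with its SE in the siRNA arm (blue) and the mASO arm (orange), filled where the edgeR adjusted p was under 0.05. Filled orange points to the left of 0 are all type I members, and no type II member is filled to the left of 0.

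The 2 arms share no libraries, and 5 members passed in the same direction in both, Ifit3, Mx2, Irf1 and Igtp upwards and Eif2ak2 downwards. None passed in opposite directions. Each arm changed much of the transcriptome, and the share of all genes passing alike in both was not counted. Whether such shared calls are particular to these members was therefore not tested. The difference of the arms, the log2 fold change of the mASO arm minus that of the siRNA arm, was below 0 for 27 of 29 type I members, with a median of −0.68, and for 8 of 11 type II members, with a median of −0.07. Over all genes 51.2% were below 0 and the median was −0.01. By edgeR 0 members passed in this comparison after adjustment, as against 0.00636% of all genes (1 gene), and by limma voom 0 members passed. DESeq2's Wald test passed 5, all with negative values, Irf7, Ifi44, Ifit1, Isg15 and Oasl1. Over all 15720 genes that test passed 45 with positive and 17 with negative values. At an unadjusted p under 0.05 edgeR had 16 members, all type I, or 55.2% of that class, against 7.39% of all genes. The difference was −1.68 ± 0.27 for Irf7 (unadjusted p = 2.23e-05, edgeR adjusted p = 0.117), the third smallest p of all genes tested. It was −1.50 ± 0.30 for Ifi44, −1.43 ± 0.34 for Ifit1, −1.47 ± 0.39 for Rsad2 and −1.63 ± 0.42 for Isg15 (edgeR adjusted p = 0.327 for Ifi44 and 0.53 for the others). Irf7 passed without siCntrl library 1 (−1.88, edgeR adjusted p = 0.0236) or siSTAT3 library 1 (−1.83, edgeR adjusted p = 0.0414), and Isg15 without siCntrl library 1 (−2.10, edgeR adjusted p = 0.0433). For type II members the unadjusted count was 0 of 11, and the widest interval was that of Gbp5, from −1.71 to 1.64, so differences between the arms for these genes were not detectable rather than absent.

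The controls were compared directly because they set the base of each arm. Type I members stood higher in mASO Scrbl than in siCntrl for 28 of 29 genes, with a median log2 difference of 0.44, against 51.8% of all genes and a median of 0.01. In 15 type I and 2 type II members all 3 mASO Scrbl libraries were above all 3 siCntrl libraries, against 6.75% of all genes. By edgeR 0 members passed after adjustment, as against 0.0127% of all genes (2 genes), and 12 members, 11 of them type I, were under an unadjusted p of 0.05, against 7.85% of all genes. By limma voom 0 members passed, and DESeq2's Wald test passed 4, Irf7, Isg15, Bst2 and Ifi44. Over all 15720 genes the Wald test passed 24 as higher and 55 as lower in mASO Scrbl. The log2 difference, mASO Scrbl minus siCntrl, was 1.49 ± 0.30 for Isg15, 1.11 ± 0.21 for Ifi44, 1.06 ± 0.19 for Irf7 and 0.72 ± 0.15 for Bst2. Their edgeR adjusted p-values were 0.233, 0.181, 0.159 and 0.233. Exact two-sided permutation of the 6 log2 values gave p = 0.1 for each, the smallest that 3 libraries against 3 allow. Without siCntrl library 1, Irf7 and Isg15 passed (1.26 and 1.96, edgeR adjusted p = 0.0331 and 0.00594). The sample-sheet numbers in the labels recur between the arms, with 7, 8 and 11 used in each and none repeated within an arm, so the arms may come from different sequencing runs. Run, load, preparation and handling therefore cannot be told apart in the comparison of the control groups, in that of the groups labelled STAT3 and in the difference of the arms.

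The groups labelled STAT3 were compared in the same way. By edgeR 0 members passed between mASO STAT3 and siSTAT3, as 0% of all genes did, and DESeq2's Wald test and limma voom passed 0 members each. At an unadjusted p under 0.05 there were 5 members, Irf7, Rsad2, Ifit1, Oasl1 and Ifitm3, against 5.85% of all genes, all lower in mASO STAT3. Irf7 had the smallest p, with a log2 difference of −0.62 ± 0.19 (edgeR adjusted p = 0.53). The median over type I members was −0.32 and over type II members −0.06.

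**Figure D5:**
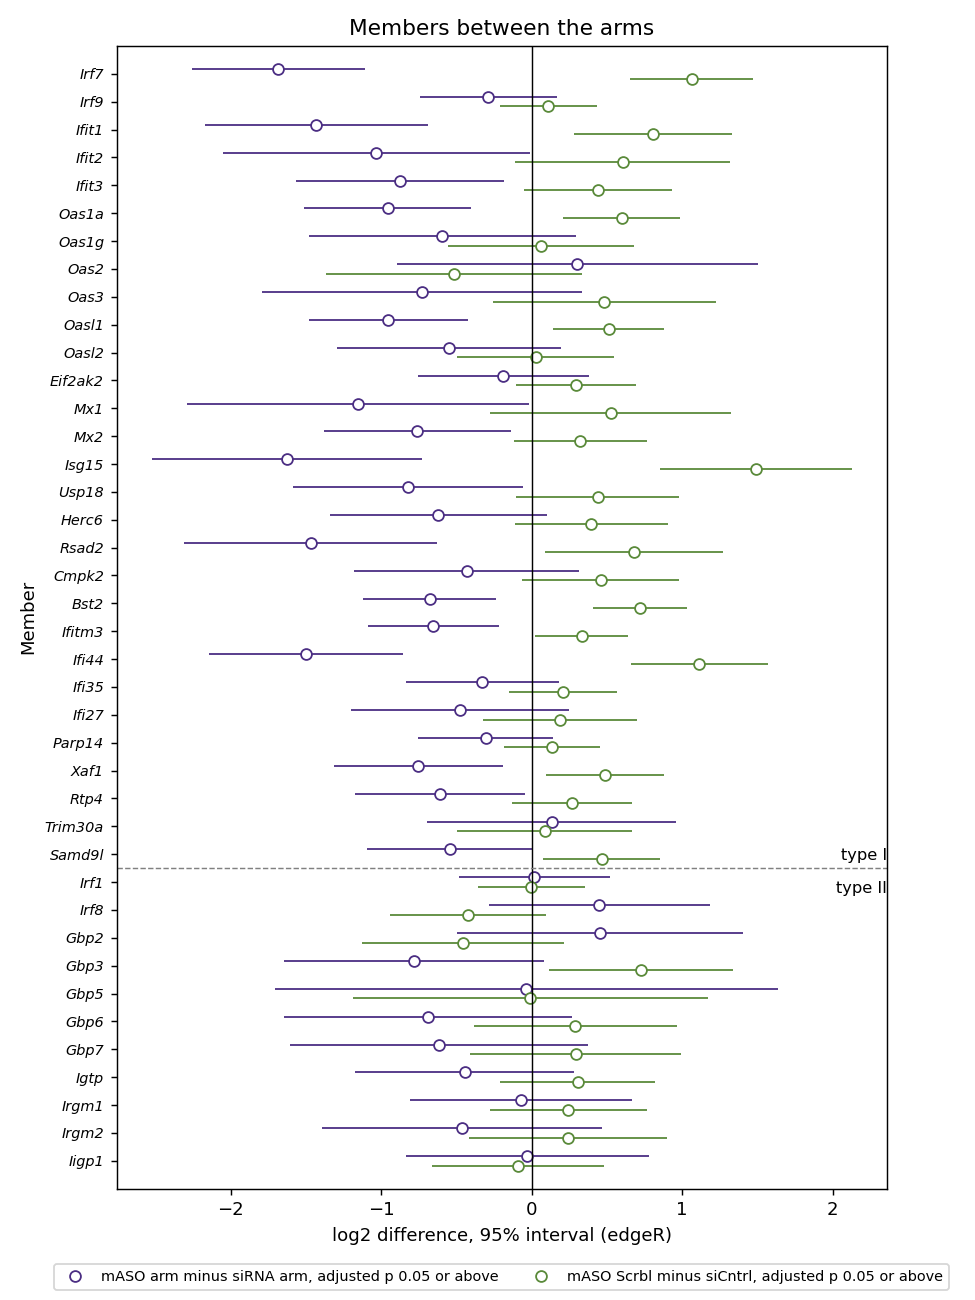
Log2 difference of each member with its 95% interval, for the mASO arm minus the siRNA arm (purple) and for mASO Scrbl minus siCntrl (green). No point is filled because no edgeR adjusted p was under 0.05, and the 2 series share the control libraries, so they are not independent.

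Members also varied together within groups. With group means removed, pairs of type II members had a median Pearson r of 0.69 over the 12 libraries, pairs of type I members 0.25 and mixed pairs 0.33, while the median with all other genes was 0.00 for type I and −0.02 for type II members. These pairs share libraries and scaling, so the values are descriptions. Library 3 of siSTAT3 was the highest of its group for 11 of 11 type II and 22 of 29 type I members, and for 4828 of all 15720 genes. It also had the fewest counts of the 12 libraries. Library 3 of mASO STAT3 was the highest of its group for 8 of 11 and 21 of 29 members, and for 5026 of all genes. Among the controls, siCntrl library 1 was the highest of its group for 7 of 11 and 16 of 29 members (5922 of all genes). For mASO Scrbl library 3 the counts were 5 of 11 and 16 of 29 (5799 of all genes).

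Of 21 interferon genes listed as ligands of the pathway, 3 were found in the table, and these were barely present. The table also keeps genes without any count, so the level of the interferon genes missing from it is unknown. Ifnb1 had 1 count in the 12 libraries together and Ifng at most 2 counts in any library and 10 in all, so neither was tested, and Ifnk, with 73 counts in all, passed in neither arm. No difference in the mRNA of these 3 genes was detectable at this depth.

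Of 6 receptor genes 1 was higher and 4 were lower in each arm, or 16.7% and 66.7%. Among all genes 22.4% were higher and 23.4% lower in the siRNA arm, beside 21.3% higher and 22.5% lower in the mASO arm. Ifnar2, a chain of the type I receptor, rose from 39.1 ± 1.69 to 58.9 ± 5.41 CPM in the siRNA arm and from 30.9 ± 1.97 to 51.9 ± 5.39 CPM in the mASO arm. Ifngr1, the ligand-binding chain of the type II receptor, fell from 75.4 ± 8.82 to 33.4 ± 0.997 CPM and from 78.4 ± 2.94 to 33.1 ± 1.37 CPM. The log2 fold changes were 0.59 ± 0.12 and 0.75 ± 0.12 for Ifnar2 and −1.17 ± 0.11 and −1.24 ± 0.11 for Ifngr1. Ifngr2, Ifnlr1 and Il10rb were the other 3 that were lower. Ifnar1 passed in neither arm. In the difference of the arms 0 of the 6 passed by edgeR, and Il10rb alone was under an unadjusted p of 0.05 (0.81 ± 0.27, edgeR adjusted p = 0.623). Without mASO Scrbl library 3 the mASO arm had 2 lower, and scaling by library totals ended the call of Ifnar2 in both arms.

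Of 8 signal transducers, 1 was higher and 1 lower in the siRNA arm and 2 were higher and 1 lower in the mASO arm. Irf3, which starts interferon production after RNA or DNA sensing, was higher in both arms (0.93 ± 0.16 and 0.61 ± 0.15), and Stat2 in the mASO arm (0.56 ± 0.15, against 0.25 ± 0.15 in the siRNA arm). The siRNA count higher was 2 without siCntrl library 2 or siSTAT3 library 2, and the mASO count lower was 0 without mASO STAT3 library 1 or mASO Scrbl library 2. With library totals 1 was higher and 3 lower in the siRNA arm, and 6 were lower in the mASO arm with 0 higher. Of 9 genes listed as feedback inhibitors, 3 were higher (33.3%) and 1 lower (11.1%) in the siRNA arm. In the mASO arm 2 were higher and 2 lower (22.2% each), near the shares of all genes. Those higher in both arms, Uba7 (1.14 ± 0.20 and 0.75 ± 0.20) and Ube2l6 (0.46 ± 0.17 and 0.50 ± 0.17), are the activating and conjugating enzymes for ISG15 and not inhibitors of the pathway, and Socs1 and Socs3 passed in neither arm. Without siCntrl library 1 or 3 or siSTAT3 library 3, 2 to 3 genes of this list were lower in the siRNA arm, and leaving out any mASO library took the higher or the lower count of the mASO arm to 1. With library totals 1 was higher and 6 lower in the siRNA arm, and 5 were lower in the mASO arm with 0 higher.

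Further interferon targets were taken from 2 lists. Of 34 other type I induced genes tested, 4 were higher and 6 lower in the siRNA arm and 0 were higher and 7 lower in the mASO arm, where 1 gene was higher by DESeq2's Wald test, 0 by limma voom and 1 by edgeR at an unadjusted p under 0.05. These are 11.8% higher and 17.6% lower in the siRNA arm, both below the 22.4% and 23.4% of all genes, and 20.6% lower in the mASO arm, near the 22.5% of all genes. The siRNA count higher was 1 without siCntrl library 3 or siSTAT3 library 3 and 2 without siCntrl library 2 or siSTAT3 library 1, the last of which also left 3 lower. Without mASO STAT3 library 3 the mASO arm had 1 higher. With library totals 0 were higher in either arm, and 14 and 22 were lower. Ifi27l2b was lower in both (−2.81 ± 0.23 and −2.46 ± 0.23), as were Lgals3bp (−0.76 ± 0.18 and −1.20 ± 0.18) and the mitochondrial RNA exonuclease Pnpt1 (−0.93 ± 0.21 and −1.27 ± 0.21). Dhx58, the RNA sensor LGP2, was lower in the mASO arm (−1.45 ± 0.26) and did not pass in the siRNA arm (−0.57 ± 0.26).

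Of 25 other type II induced genes tested, 12 were higher and 2 lower in the siRNA arm and 11 were higher and 1 lower in the mASO arm, shares of 48% and 44% higher beside the 22.4% and 21.3% of all genes given above. Without single libraries 9 to 14 and 8 to 12 were higher, and with library totals 8 and 5. The siRNA count lower was 1 without siCntrl library 2 or 3 or siSTAT3 library 1 or 2. Gbp11 stood at 1.67, 1.75 and 1.80 CPM in siCntrl, 50.8, 67.4 and 65.4 CPM in siSTAT3, 2.27, 1.68 and 2.22 CPM in mASO Scrbl and 46.5, 60.8 and 74.1 CPM in mASO STAT3. Its log2 fold changes were 5.14 ± 0.21 and 4.88 ± 0.21, above those of every one of the 40 members in each arm. Gbp10 (3.06 ± 0.44 and 2.24 ± 0.43), a close relative of Gbp6, and Cxcl9 (2.31 ± 0.28 and 1.85 ± 0.27), a chemokine for T cells, were also higher in both arms. So were the immunoproteasome subunits Psmb8 (1.11 ± 0.17 and 1.16 ± 0.17) and Psmb10 (1.37 ± 0.19 and 1.06 ± 0.19). Icam1, an adhesion molecule on the same list, was lower in both (−1.01 ± 0.16 and −0.69 ± 0.16).

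Liver is a mixture, and in bulk RNA fewer cells of a type and less RNA per cell cannot be told apart. Summed levels of some cell type marker lists differed in the same comparisons, while those of other lists overlapped. The 8 hepatocyte markers summed to 72134.3 to 120233 CPM in the controls and 129197 to 168542 CPM in the libraries labelled STAT3, with no overlap. Alb was the largest part of this sum in every library. It ran from 35365.3 to 69260.5 CPM in the controls and from 80548.9 to 112824 CPM in the others. Of the hepatocyte markers 3 were higher (37.5%) and 1 lower (12.5%) in the siRNA arm, and 5 were higher (62.5%) in the mASO arm. Beside every marker count here stand the shares of all genes. These were 22.4% higher and 23.4% lower in the siRNA arm, and 21.3% higher and 22.5% lower in the mASO arm. The 6 stellate and myofibroblast markers summed to 481 to 963 CPM in the controls and 69.5 to 102 CPM in the libraries labelled STAT3, with 5 of 6 lower in each arm and the remaining 1 higher in the mASO arm. The 8 monocyte and scar macrophage markers, Spp1 making up most of the control sum, ran from 606 to 1562 CPM in the controls and from 117 to 196 CPM in the others, with 6 of 8 lower in the siRNA arm and 3 of 8 in the mASO arm. Spp1 is also on the list for bile duct cells, of whose 5 markers 4 were lower in the siRNA arm and 3 in the mASO arm. The 6 markers of plasmacytoid dendritic cells, known for type I interferon, summed to 136 to 444 CPM in the controls and 13.2 to 19.3 CPM in the others, with 4 of 6 lower in each arm. Ly6d made up most of the control sum, while Siglech, the defining marker, was at most 0.582 CPM. The 8 T and NK cell markers, cells known for interferon gamma, summed to 2.52 to 5.33 CPM in siCntrl, 2.80 to 5.74 CPM in siSTAT3, 2.03 to 3.23 CPM in mASO Scrbl and 5.49 to 6.31 CPM in mASO STAT3, with 3 of 7 tested higher in the mASO arm and 1 higher and 1 lower in the siRNA arm. The 5 Kupffer cell markers found ran from 166 to 413 CPM in the controls and from 255 to 389 CPM in the others, but their members went opposite ways. Timd4 was higher (0.86 ± 0.30 and 0.98 ± 0.30) and Marco lower (−2.93 ± 0.54 and −2.39 ± 0.52) in both arms, and Clec4f was higher in the mASO arm (0.92 ± 0.33). The 6 conventional dendritic cell markers ran from 5.78 to 10.3 CPM in the controls and from 8.32 to 13.4 CPM in the others, with 1 of 6 higher in the siRNA arm and 4 of 6 in the mASO arm. The 6 neutrophil markers ran from 29.3 to 91.7 CPM and from 11.1 to 40.2 CPM, with 3 and 4 of 6 lower. The 6 markers of sinusoidal endothelium overlapped, at 117 to 152 CPM in the controls and 92.5 to 161 CPM in the others. Of these, 3 were lower in the siRNA arm, and 1 was higher and 2 were lower in the mASO arm. Of 4 B and plasma cell markers found, 0 passed in the siRNA arm and 1 was higher in the mASO arm. No marker on these lists was at 0 in all libraries of a group. Their part in the changes of the interferon-stimulated genes was not tested.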

How the data were processed

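Liver RNA of 12 samples was sequenced after a stranded mRNA kit, as the labels' protocols state. Raw counts for each gene symbol, deposited by the authors, were used as they stand. Per the submitters' processing notes TopHat and Cufflinks were used, with no role or version. The sources used here do not give the build, the counting tool or the use of strand, so overlapping antisense genes cannot be told apart. The members and lists were chosen with earlier results of these data known.

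One edgeR fit (version 4.0.16, R 4.3.3) took in all 12 libraries by group, with TMM scaling and the filter on low counts (minimum count 10, minimum total 15), which removed 9820 genes. Calls came from the robust quasi-likelihood test at a Benjamini-Hochberg adjusted p under 0.05. SE is the log2 fold change divided by the square root of F, and intervals are 95%. All 40 members could be named, and values in every library are given for up to 8 members per class that passed, by smallest p, and for Isg15, Irf7, Irf1 and Irf8. From the pathway and cell type lists, naming went to at most 4 genes each, by smallest p over both arms, and to Ifng, Ifnb1 and Stat2. A further gene that could be named is not reported here. Ifnar1, Ifngr2, Ube2l6, Socs1, Socs3, Psmb8, Icam1 and Spp1 were named in addition, after their values were seen. Alb was named, also after its values were seen, as the largest part of the hepatocyte sum. The permutation used log2 of CPM plus 0.05. Alternatives were DESeq2's size factors and Wald test (version 1.42.0), limma voom (version 3.58.1), library totals, no filter, at least 1 CPM in 3 libraries, a replicate block, the compared libraries only and leaving out each library. The procedure was run on simulated data in which few genes changed and composition was not shifted. That setting is unlike these data, so the run does not test the scaling used here. Promoters came from RefSeq on GRCm38.p6, and shared windows and exon lengths from GENCODE M21.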

Additional observations from a re-analysis of the deposited data

How the results depend on the processing

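Calls of Ifit1, Ifit3, Eif2ak2, Mx2, Gbp6 and Igtp in the siRNA arm, and of Irf7, Oas1a, Oasl1, Eif2ak2, Isg15, Ifi44 and Xaf1 in the mASO arm, held in all 14 alternatives. Scaling by library totals gave 5 members higher and 7 lower in the siRNA arm, 0 higher and 23 lower in the mASO arm, and 2 higher between the controls. In the mASO arm this scaling turned Irf9 to −0.56, Usp18 to −0.56 and Ifitm3 to −0.52. DESeq2's Wald test gave 5 members lower in the difference of the arms and 4 higher between the controls, and no filter gave 1 and 2. Over all genes the Wald test gave 45 higher and 17 lower in the difference and 24 higher and 55 lower between the controls. Leaving out single libraries gave 9 to 15 members higher and 1 to 2 lower in the siRNA arm, 3 to 5 higher and 7 to 9 lower in the mASO arm, 0 to 2 lower in the difference and 0 to 2 higher between the controls. The cause of these changes was not tested. With the replicate block the counts were 13 and 1 in the siRNA arm, 5 and 11 in the mASO arm and 0 in the difference. Libraries with the same number had residual correlations from −0.238 to 0.187. Pairs with different numbers were not set beside these, so whether the numbers pair libraries was not decided. With only the compared libraries in the fit Herc6 and Samd9l passed as lower in the mASO arm. Of the 40 members, Gbp5 had the widest interval in both arms.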
